A study of Mus musculus with 2 samples.

Results

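The genes described are the 6 members of the miR-23/27/24 clusters, which are 2 paralogous groups of microRNA genes. Mir23a, Mir27a and Mir24-2 lie together on chromosome 8, and Mir23b, Mir27b and Mir24-1 on chromosome 13. They were taken by name from the 2202 microRNA genes in each count table, and all 6 were found. MicroRNA-seq was done on adrenal gland tissue of 2 female B6CASTF1/J mice aged 10 days, the first-generation offspring of C57BL/6J and CAST/EiJ mice, with no treatment named in the labels. The libraries, labelled biological replicates 1 and 2 and animals 3 and 4, form 1 group, so no condition was compared with another. Both samples carry the same donor entry, so only those numbers mark them as separate animals, and what separates the libraries may in part be technical.

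Each cluster is read as a primary transcript that is cut into 3 hairpins, and each hairpin yields a mature microRNA from either arm. The mature strand guides the Argonaute protein to messenger RNAs through its seed, the bases 2 to 8 from the 5′ end, so paralogues with the same seed are expected to share many targets. The family is known from blood vessels, where it has been tied to endothelial sprouting. Work in other systems links miR-23 to glutamine metabolism, miR-27 to the restraint of fat-cell differentiation, and miR-24, in human adrenocortical cells, to lower messenger RNA of the enzymes that complete cortisol and aldosterone synthesis.

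The sequences below, from RefSeq (GRCm38.p6), show how far the 2 clusters can be told apart by reads. In the mature sequences capitals mark the seed, and miR-27a-3p and miR-27b-3p have the same one.
miR-23a-3p: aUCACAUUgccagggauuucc
miR-27a-3p: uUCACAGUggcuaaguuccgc
miR-27b-3p: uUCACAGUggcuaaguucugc
miR-24-3p (Mir24-1 and Mir24-2): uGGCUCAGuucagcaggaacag
miR-24-2-5p: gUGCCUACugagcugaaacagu
miR-24-1-5p: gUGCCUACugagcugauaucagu

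Counted from 1 at the 5′ end of the first-named sequence, miR-27a-3p and miR-27b-3p differed at 1 of 21 bases, C19U. The 21 bases of miR-23a-3p matched the Mir23b hairpin with the same number of differences and at the same position, U19A. Reads of these microRNAs are thus assigned to the a or the b copy by a base near their 3′ end. For miR-24 no base separates the copies, since the 22 bases of miR-24-3p are the same in both genes. The 5′ arms of the Mir24 hairpins are alike up to base 16 and first differ at base 17.

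The hairpins are shown with capitals for the longest stretch of sequence that both paralogues hold. That stretch is 20 bases for Mir23a and Mir23b, and 28 bases for Mir24-2 and Mir24-1, where it covers all of miR-24-3p.
Mir23a hairpin: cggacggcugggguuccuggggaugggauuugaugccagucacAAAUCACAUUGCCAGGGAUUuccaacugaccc
Mir23b hairpin: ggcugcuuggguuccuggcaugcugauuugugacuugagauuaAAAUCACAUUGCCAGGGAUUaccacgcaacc
Mir24-2 hairpin: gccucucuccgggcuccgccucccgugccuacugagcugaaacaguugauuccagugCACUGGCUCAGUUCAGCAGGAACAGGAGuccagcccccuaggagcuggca
Mir24-1 hairpin: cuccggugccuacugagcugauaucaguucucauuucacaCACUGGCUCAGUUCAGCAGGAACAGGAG

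On mm10 (GRCm38), all on the plus strand, Mir23a (ENSMUSG00000065611.1) spans chromosome 8 positions 84208518 to 84208592, Mir27a (ENSMUSG00000065444.1) 84208672 to 84208758 and Mir24-2 (ENSMUSG00000065541.1) 84208815 to 84208921. No other gene of the annotation overlaps Mir23a or Mir27a, and the 3′ end of Mir24-2 touches the exon of the long noncoding RNA gene Gm26532, which starts at 84208920. Mir23b (ENSMUSG00000065599.2) spans chromosome 13 positions 63300484 to 63300557, Mir27b (ENSMUSG00000065475.2) 63300712 to 63300784 and Mir24-1 (ENSMUSG00000105904.1) 63301208 to 63301275. These 3 lie within the protein-coding gene 2010111I01Rik, named Aopep in RefSeq, on the same strand, and within Fancc on the opposite strand. Mir23b is intronic in the annotated transcripts of both that span it, whereas Mir27b overlaps an exon in 1 transcript, and Mir24-1 in 4 transcripts, of 2010111I01Rik. The hairpins on chromosome 8 are packed into 404 bases, and those on chromosome 13 are spread over 792 bases.

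**Figure D1:**
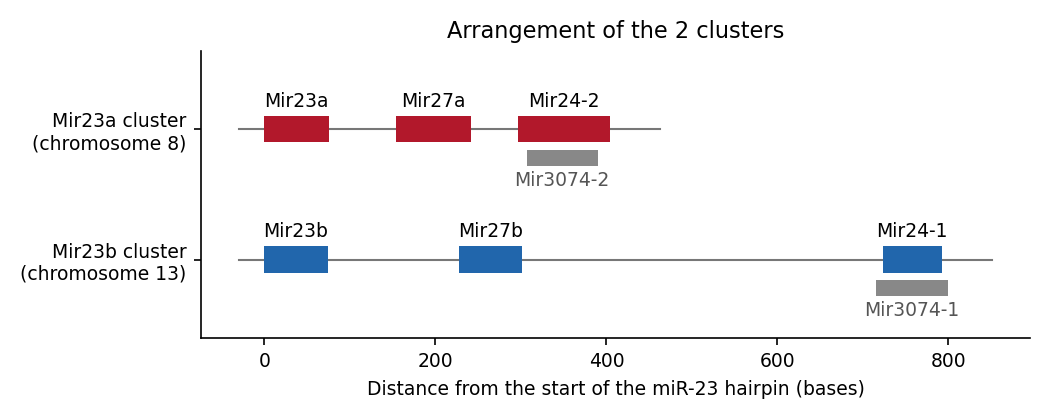
Map of both clusters, with the distance in bases from the start of the miR-23 hairpin on the x axis. Coloured boxes are the hairpin genes on the plus strand and grey boxes are microRNA genes on the opposite strand; the gap before Mir24-1 is 423 bases, against 56 before Mir24-2.

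Replicates 1 and 2 held 2023410 and 3208821 reads assigned to microRNA genes on the strand of the gene, so that 1 count was worth 0.494 and 0.312 CPM. CPM is the abundance of a gene after scaling the library's assigned reads to a fixed total. Reads that align to several places made up 25.0% and 27.2% of all reads and were not assigned to any gene. Counts are per hairpin, so the 5′ and 3′ arms were summed. A microRNA read covers the mature molecule, and levels of different genes were not divided by hairpin length, which ran from 68 to 107 bases. How evenly the library preparation recovers different mature sequences was not tested.

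By counted reads, the miR-23 genes dominated both clusters, the miR-27 genes came next and the miR-24 genes were lowest. A whole mature strand of miR-24 is the same in both of its genes, so its reads fit both and were left out. The place of miR-24 in this order is therefore that of its remaining reads, and its full level was not measured. Mir23b reached 12712 CPM in replicate 1 and 33619 in replicate 2, with a mean of 23166 ± 14784 CPM (SD, n = 2). Mir23a was counted at 10601 and 29452 CPM, a mean of 20027 ± 13329 CPM (SD, n = 2). Both were higher in replicate 2, where Mir23b ranked 7 and Mir23a ranked 9 among all microRNA genes, against ranks 15 and 21 in replicate 1. In whole tissue, fewer cells of a type and less RNA per cell cannot be told apart.

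Mir27b stood at 3999 and 3430 CPM, a mean of 3714 ± 402 CPM (SD, n = 2). Mir27a stood at 636 and 559 CPM, a mean of 598 ± 54.2 CPM (SD, n = 2). The levels of the miR-27 genes thus lay close together in the 2 libraries, with Mir27b at rank 45 and 49 and Mir27a at rank 116 and 113. Mir24-2 was counted at 194 and 84.1 CPM and Mir24-1 at 86.5 and 66.1 CPM, from 392 and 270 reads for Mir24-2 and 175 and 212 reads for Mir24-1. By counted reads, the order from Mir23b through Mir23a, Mir27b, Mir27a and Mir24-2 to Mir24-1 was the same in both libraries. The ranges of Mir23b and Mir23a over the libraries overlapped, as did those of Mir24-2 and Mir24-1. Those of the other neighbours in that order did not. Both genes of a pair were counted in the same libraries, so the ratios within a library, given below, compare them more closely.

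**Figure D2:**
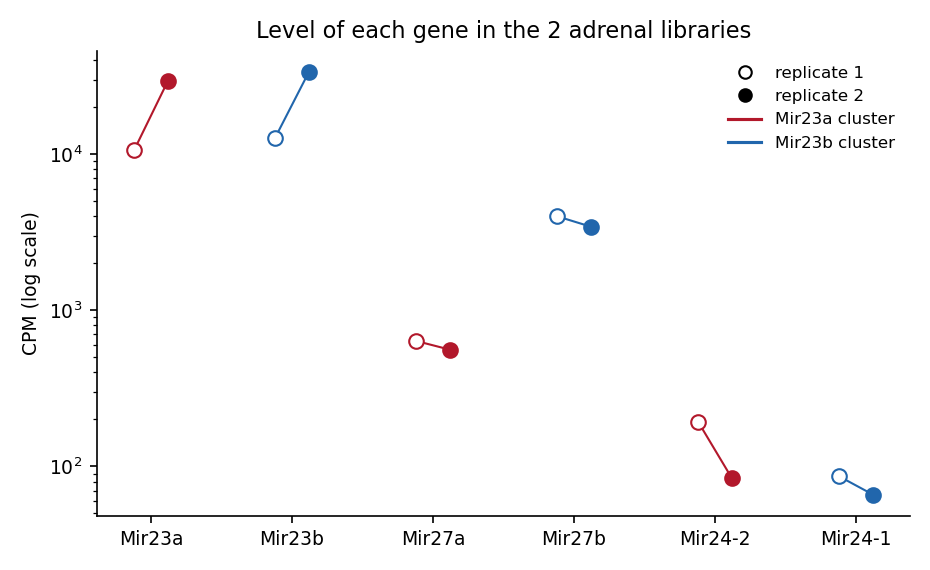
CPM (log axis) of each gene in replicate 1 (open circle) and replicate 2 (filled circle), joined by a line, with the chromosome 8 genes in red and the chromosome 13 genes in blue. The lines of Mir23a and Mir23b climb from 10601 and 12712 to 29452 and 33619 CPM, while those of Mir27a and Mir27b are nearly level.

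All 6 members cleared 10 CPM in each library, a level reached by 302 of the 2202 genes. The chromosome 8 cluster held 1.14% of all counts in the first library, with an exact 95% interval from 1.13 to 1.16%, and 3.01% in the second, from 2.99 to 3.03%, which gives a mean of 2.08% ± 1.32 (SD, n = 2). The chromosome 13 cluster held 1.68% (1.66 to 1.70%) and 3.71% (3.69 to 3.73%), with a mean of 2.70% ± 1.44 (SD, n = 2). The chromosome 13 cluster was the larger in each library. Without the miR-23 genes the chromosome 8 cluster held 0.0830% and 0.0644% of counts, and the chromosome 13 cluster held 0.409% and 0.350%. These shares leave out the miR-24 reads that align to both copies and are no total for the family. Any 3′-arm reads of miR-23 or miR-27 that end before base 19 would fit both copies and be left out too. Their number was not analysed.

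The makeup of the clusters differed between chromosomes and between libraries. Mir23a took 92.7% and 97.9% of the counts of its cluster in replicates 1 and 2, whereas Mir23b took 75.7% and 90.6%. Mir27b made up 23.8% and 9.24% of the chromosome 13 cluster, against 5.56% and 1.86% for Mir27a on chromosome 8. Genes of 1 cluster were therefore far from equal in counts, and the miR-27 share of each cluster was lower in replicate 2.

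Member by member, the b copy exceeded the a copy for miR-23 and miR-27. A ratio of counts within a library needs no scaling for depth. Mir23b was counted 1.20 times as often as Mir23a in replicate 1 (exact 95% interval 1.18 to 1.22) and 1.14 times in replicate 2 (1.13 to 1.15). Mir27b was counted 6.29 times as often as Mir27a in replicate 1 (5.93 to 6.67) and 6.13 times in replicate 2 (5.83 to 6.45). The advantage of the chromosome 13 copy was thus slight for miR-23 and wide for miR-27, in both libraries. On the log2 scale the mean b over a ratio was 0.23 ± 0.05 for miR-23 and 2.63 ± 0.03 for miR-27 (SD, n = 2). The intervals cover counting error only, here and below.

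For miR-24 the direction was the opposite, since Mir24-1, the copy on chromosome 13, was counted 0.446 times as often as Mir24-2 in replicate 1 (0.371 to 0.535) and 0.785 times in replicate 2 (0.653 to 0.943). The mean log2 ratio was -0.76 ± 0.58 (SD, n = 2), so the spread between libraries was nearly as wide as the ratio. These counts hold the reads that fit 1 copy only. How many of the reads set aside for several alignments were miR-24-3p was not analysed here, and the ratio says nothing about the output of the copies as a whole.

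Set against genes that share a mature sequence and reached 10 CPM in both libraries, Mir24-2 stood above the median and Mir24-1 below it. Among the 1018 genes matched by symbol to RefSeq mature sequences, 94 hold a mature sequence that another gene in that table also encodes. The table is not complete, so some genes without a match may share one too. Of these 94, only 2 reached 1000 CPM in both libraries, against 69 of the 924 genes with no match. Among genes at 10 CPM or more in both libraries, the median of the mean CPM was 112 for the 38 with a match and 421 for the 237 without. By mean CPM, Mir24-2 (139 CPM) ranked 18 and Mir24-1 (76.3 CPM) ranked 24 of the 94. The last gene with any read ranked 56, and those after it stood at 0 in both libraries. The mean levels of the Mir24 copies differed 1.82-fold, against a median of 4.72-fold over 22 copy families. These were the symbols with exactly 2 numbered copies, both counted and at least 1 of them with a mean of 10 CPM or more.

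The opposite strand bears on miR-24 as well. Mir3074-2, a microRNA gene on the minus strand, overlaps Mir24-2 over 83 bases, and Mir3074-1 covers all 68 bases of Mir24-1. Reads of Mir24-1 and Mir24-2 could be counted only because strand was kept. Counted irrespective of strand, both genes stood at 0 in both libraries, while the counts of Mir23a, Mir23b, Mir27a and Mir27b were identical. Mir3074-1 held 41 and 57 reads of its own (20.3 and 17.8 CPM), and Mir3074-2 held 0 in either library. That 0 allows up to 1.48 and 0.935 CPM of reads that fit 1 place only. Both genes hold a mature sequence that another gene also encodes, so reads that fit several places are missing from their counts.

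Between the libraries, Mir23a and Mir23b had similar log2 ratios, as did Mir27a and Mir27b, while miR-23 and miR-27 genes of 1 cluster lay far apart. For miR-24 it was otherwise, since Mir24-2 was further from Mir24-1 than Mir24-1 was from its neighbour Mir27b. Log2 ratios of replicate 2 over replicate 1 were computed from CPM scaled by TMM, a correction for unequal composition, after adding 1 CPM as pseudocount. They were tested for 329 genes, those that reached 10 CPM in 1 library or both. Counts were set against each other by an exact conditional binomial test, two-sided, with p-values adjusted over these genes by the Benjamini-Hochberg method. It compares 2 libraries against counting error, not conditions. Mir23a had a log2 ratio of 1.52 (exact 95% interval 1.50 to 1.54) and Mir23b had 1.45 (1.43 to 1.47), both past the adjusted threshold of 0.05.

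The miR-27 genes lay just below 0. Mir27a had a log2 ratio of -0.14 (-0.24 to -0.03, adjusted p = 0.0138 by the exact test) and Mir27b had -0.17 (-0.21 to -0.13, adjusted p = 6.9e-16 by the exact test). Mir24-2 had -1.15 (-1.38 to -0.93) and Mir24-1 had -0.34 (-0.64 to -0.04, adjusted p = 0.0308 by the exact test). Without a floor on low genes, the adjusted p of Mir24-1 was 0.0682 over 790 genes.

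All 6 members passed the test, 2 higher and 4 lower in replicate 2. So did 74.2% of the 329 genes, 37.7% higher and 36.5% lower, and passing is therefore no particular feature of the members. A log2 ratio of at least 1 in size was seen for 3 members, Mir23a, Mir23b and Mir24-2, against 22.2% of all tested genes. The share at 1 or more in favour of replicate 2 was 10.9% and that in favour of replicate 1 was 11.2%. The median log2 ratio was -0.16 over the members and -0.01 over all tested genes. With Mir126a left out of the library totals, the median over all genes moved to -0.26 and the calls split into 91 higher and 167 lower, against 124 and 120 under TMM. Mir23a (1.26) and Mir23b (1.19) were higher and the other 4 members lower under that scaling as well.

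**Figure D3:**
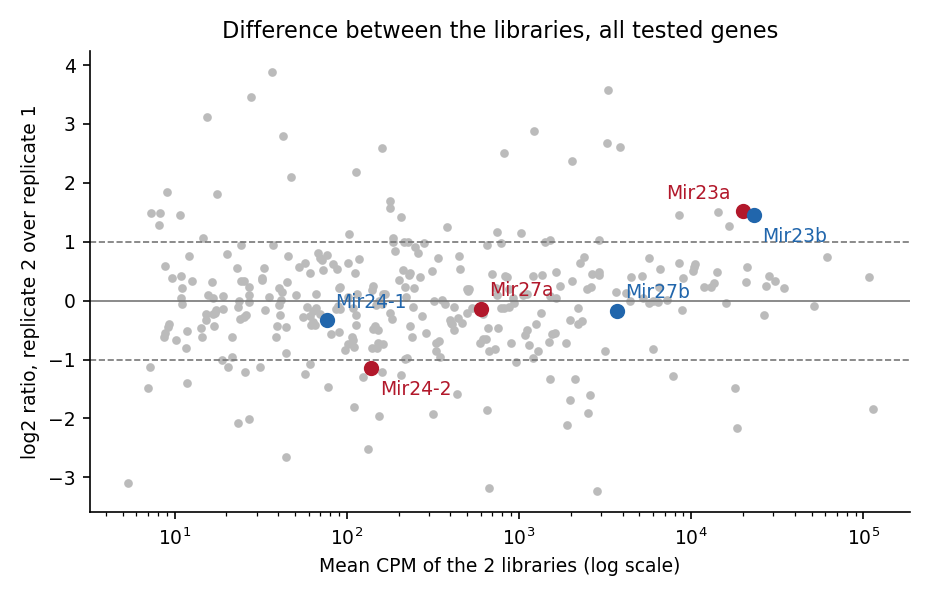
Log2 ratio of replicate 2 over replicate 1 (y axis) against the mean CPM of the libraries (x axis, log scale) for the 329 tested genes in grey, with chromosome 8 members in red and chromosome 13 members in blue. Dashed lines mark log2 ratios of 1 and -1; Mir23a and Mir23b sit together at 1.52 and 1.45 among the most abundant genes, and Mir27a and Mir27b sit near 0.

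The balance of miR-23 to miR-27 shifted in the same direction in both clusters. Mir23a was counted 16.7 times as often as Mir27a in replicate 1 (exact 95% interval 15.8 to 17.6) and 52.6 times in replicate 2 (50.2 to 55.2). Mir23b was counted 3.18 times as often as Mir27b in replicate 1 (3.10 to 3.26) and 9.80 times in replicate 2 (9.61 to 10.00). The ratio was thus 3.16 times as high in replicate 2 on chromosome 8 (odds ratio, exact 95% interval 2.93 to 3.40) and 3.08 times on chromosome 13 (2.99 to 3.18). The difference between the clusters was not tested.

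The b over a ratios of miR-23 and miR-27 moved far less, and that of miR-24 moved more. Between the libraries the Mir23b to Mir23a ratio changed by a factor of 0.952 (exact 95% interval 0.933 to 0.971) and the Mir27b to Mir27a ratio by 0.975 (0.902 to 1.05). The interval for miR-27 includes 1, and its lower and upper bounds limit how far that ratio can have moved. The Mir24-1 to Mir24-2 ratio changed by a factor of 1.76 (1.35 to 2.28). The Mir27a to Mir24-2 ratio changed by 2.02 (1.70 to 2.41) and the Mir27b to Mir24-1 ratio by 1.12 (0.912 to 1.38).

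**Figure D4:**
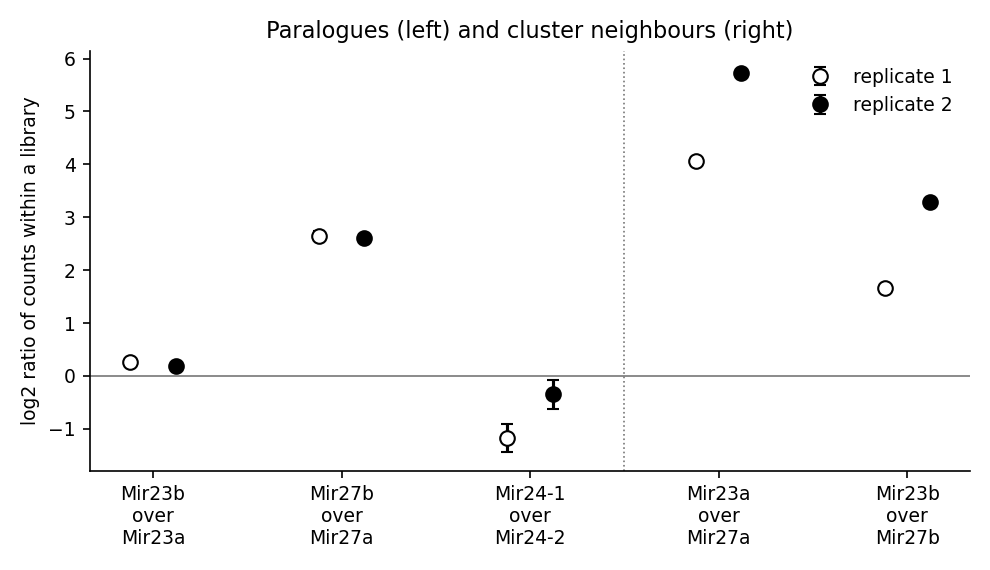
Log2 ratio of counts within each library for the 3 paralogue pairs (left of the dotted line) and for miR-23 over miR-27 in each cluster (right), with exact 95% intervals, mostly smaller than the circles. Open and filled circles lie side by side for Mir23b over Mir23a and Mir27b over Mir27a, and apart by 1.66 and 1.62 log2 units for the cluster neighbours.

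The same contrast was laid out for all genes. There were 94 pairs of tested neighbours, that is adjacent microRNA genes with the same strand and a gap under 10 kb, and in 34.0% of these the log2 ratios of the 2 genes differed by at least 1. Of the 4 neighbour pairs within the miR-23/27/24 clusters, 3 differed by that much, with Mir23a and Mir27a 1.66 apart, Mir23b and Mir27b 1.62 apart and Mir27a and Mir24-2 1.01 apart, just past the limit. Mir27b and Mir24-1 differed by 0.16. The median over all neighbour pairs was 0.74.

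A second set held 38 pairs of tested genes at different loci whose hairpins share a stretch of at least 16 bases. Of these, 15.8% differed by at least 1, and the median difference was 0.38. The 3 paralogue pairs of the family differed by 0.07 (Mir23a and Mir23b), 0.04 (Mir27a and Mir27b) and 0.81 (Mir24-2 and Mir24-1). Many of these 38 pairs come from the same few families, such as let-7, and numbered copies among them lost reads they share, so the 2 medians are given as a description. This set was drawn up after the log2 ratios of the members were seen.

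**Figure D5:**
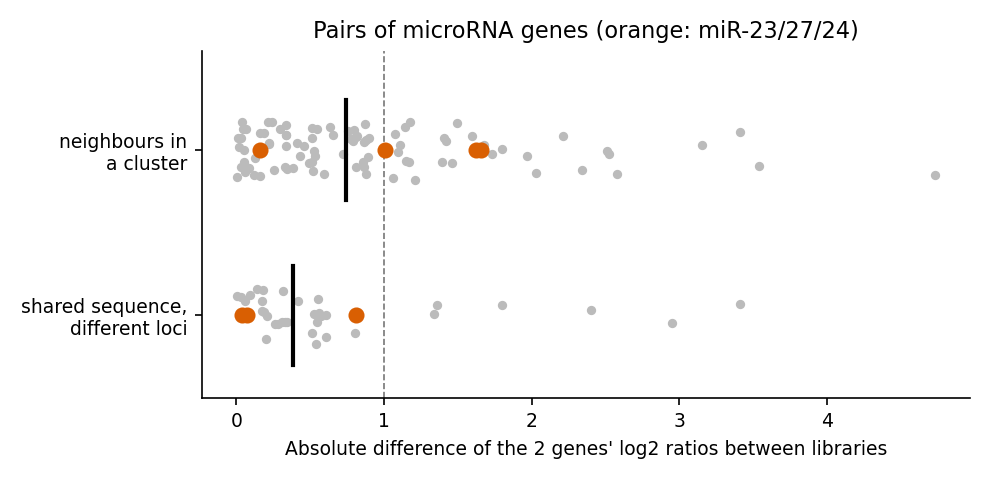
Absolute difference of the log2 ratios of 2 genes (x axis) for 94 neighbour pairs and 38 pairs with shared hairpin sequence at different loci; each point is a pair, its height within a row is arbitrary, and black bars are medians of 0.74 and 0.38. Orange points are miR-23/27/24 pairs, of which 3 of 4 neighbours and 0 of 3 paralogues lie beyond the dashed line at 1.

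Log2 ratios spanned 2.67 from Mir23a to Mir24-2 and 1.79 from Mir23b to Mir24-1. Both spans end on a Mir24 gene, counted only by reads that fit 1 copy. Without the Mir24 genes the spans were 1.66 on chromosome 8 and 1.62 on chromosome 13. In 3 clusters named for comparison the log2 ratios spanned less. The spans were 1.21 in the cluster of Mir99b, Mirlet7e and Mir125a and 1.17 over Mir322, Mir351 and Mir503. Over Mir221 and Mir222, a cluster of only 2 genes, the span was 0.33. Wider differences than between Mir23a and Mir27a were also found elsewhere, such as 2.34 between the neighbours Mir143 and Mir145a. The spans were not tested against each other.

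By level in the 2 libraries, each member had neighbours among other microRNAs. Likeness was the Euclidean distance of log2(CPM + 1) over the 2 libraries, and the other members were left out of the search. By this distance Mir23a and Mir23b lay closer to each other than to any gene searched. Among the genes searched, nearest to Mir23a was Mir26b (9948 and 23149 CPM), and nearest to Mir23b was Mir10a (17281 and 24962 CPM). Nearest to Mir27a was Mir148a (641 and 568 CPM), and nearest to Mir27b was Mir455 (3544 and 3815 CPM). Mir186 came nearest to Mir24-2, at a distance of 0.26, and Mir92-2 (77.1 and 63.6 CPM) nearest to Mir24-1. The Mir24 genes and Mir92-2 share a mature sequence with another gene, so their levels here leave out reads that fit several genes. With 2 libraries such likeness is weak.

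Among 12 microRNAs listed for blood vessels, 11 symbols were found and 10 tested. Of these 10, 7 were higher in replicate 2, 1 was lower and 2 did not pass, with a median log2 ratio of 0.46. The symbol not found, Mir92a-1, is Mir92-1 in the annotation and stayed outside these counts. It was lower in replicate 2 (2555 and 1875 CPM, log2 ratio -0.40). Over all tested genes 37.7% were higher and 36.5% lower, with a median of -0.01. The most abundant genes of the list were Mir126a of endothelium (177728 and 47927 CPM), Mir143 of smooth muscle (27532 and 33734 CPM), Mir10a and Mir10b (7675 and 21089 CPM). Of 13 microRNAs tied to adrenal steroid synthesis, 7 were higher, 4 lower and 2 did not pass, with a median of 0.15. The number called, 11 of 13, is near the share of 74.2% over all tested genes. Mir21a, a microRNA raised in many growing tissues, was counted at 4685 and 12350 CPM in that list, and Mir125a at 7747 and 4239 CPM. The lists share Mir10b and Mir132.

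Markers of other cell types also moved between the libraries. Of 4 symbols listed for the neuroendocrine cells of the adrenal medulla 2 were found, Mir375 (24805 and 31924 CPM) and Mir7b (2333 and 2081 CPM). Mir375 was higher and Mir7b lower in replicate 2. The other 2, Mir7a-1 and Mir7a-2, were missed by name, since the annotation has them as Mir7-1 and Mir7-2. Mir7-1 (159 and 166 CPM) had a log2 ratio of 0.11 and did not pass, and Mir7-2 (46.0 and 32.7 CPM) was lower at -0.43. No marker was listed for the cortex. The summed level of 2 endothelial markers was 17.8% of counts in replicate 1 and 4.79% in replicate 2, nearly all from Mir126a, opposite in direction to Mir23a and Mir23b. The hepatocyte marker Mir122 took 2.67% and 0.928%, and 4 striated muscle markers took 1.13% and 0.451%. Sums were also lower in replicate 2 for 3 red blood cell markers (653 and 320 CPM) and 3 kidney or gut markers (408 and 213 CPM), although Mir204 of the latter was higher (57.8 and 96.3 CPM). Sums were higher in replicate 2 for 2 smooth muscle markers (28429 and 39313 CPM), 4 leukocyte markers (1488 and 2451 CPM) and 7 epithelial markers (742 and 3274 CPM). No marker found in the tables was at 0 in both libraries. Their part in the differences of the miR-23/27/24 genes was not tested.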

How the data were processed

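The authors deposited raw counts of reads for each microRNA gene, 1 table a library, on mm10 with the GENCODE M21 annotation, per the text the authors deposited with each library. The aligner and counter were not given in the sources used here. The labels give a size range under 30 bases. Each table has counts irrespective of strand, on the gene's strand and on the opposite strand, as told from the values; the second was used. The 4 summary lines stayed out of totals, and include the reads that align to several places (65.2 and 72.6 for every 100 assigned). All 2202 identifiers matched M21.

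CPM was computed over all assigned reads. Library sizes were scaled with TMM (edgeR 4.0.16, R 4.3.3) over genes with a count. The quasi-likelihood test needs residual degrees of freedom, which 1 library on each side does not leave. The exact conditional binomial test was therefore run on counts (SciPy 1.17.1, Python 3.11.15) and tried on simulated counts. These were drawn with counting error alone, so the trial cannot show the error rate of the test where animals or preparations also differ. Log2 ratios use a pseudocount of 1 CPM and understate low genes. Intervals are Clopper-Pearson 95% intervals, or exact conditional intervals for odds ratios; those of log2 ratios have no pseudocount. A count of 0 allows up to 3 counts. Genes named are the members, genes opposite them, the nearest genes by level and the most abundant of 2 lists. The members and lists were chosen with earlier results of these data known. Alternatives were other scalings (DESeq2 1.42.0 size factors among them), floors, pseudocounts, totals, strand and distance.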

Additional observations from a re-analysis of the deposited data

Results flagged for a closer look

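Reads on the strand opposite to Mir24-1 were not part of the comparisons. They numbered 41 in replicate 1 and 57 in replicate 2, above the 3 counts that a count of 0 allows, and are the reads assigned to Mir3074-1. The other 5 members had no opposite-strand read in either library.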

How the results depend on the processing

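The log2 ratios of the 6 members kept their direction under every scaling, floor, pseudocount and strand setting that gave a value, and the call of Mir24-1 was lost without a floor. Irrespective of strand the Mir24 genes had no value, and at a floor of 100 CPM Mir24-1 was not tested. The number past 1 log2 unit was 3 in each setting except irrespective of strand, where it was 2 of 4. Over the whole library, summary lines included, the mean share of the chromosome 13 cluster was 1.02% in place of 2.70%, since 38.3% and 37.5% of reads were assigned. The b over a ratios without replicate 1 or without replicate 2 were those of the library left, 0.19 to 0.26 for miR-23, 2.62 to 2.65 for miR-27 and -1.16 to -0.35 for miR-24 on the log2 scale. Neighbour pairs past 1 log2 unit made up 34.8% at a floor of 100 CPM and 35.8% within 3 kb. TMM over the tested genes alone and a shared stretch of 20 bases were added after the data were seen. The former left the members' calls as they were and gave 242 calls over all genes (113 higher, 129 lower), and the latter, with 25 pairs, moved the share past 1 log2 unit by less than its counting error. No paired analysis was possible because there is 1 group. With 175 to 392 reads in each library, the Mir24 genes are the least precise.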
